A study of Mus musculus with 70 samples.

Results

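The liver transcriptome of 16-week-old male mice was compared between ZT21, late in the dark phase, and ZT9, late in the light phase. The comparison used every sequenced 16-week mouse of these times, which gave 12 of the 70 samples of the series, and the maternal diet was kept in the model as a covariate. The mice were C57BL/6 males born to dams on a control chow (Ctr, AIN-93G, 15.8% of calories as fat) or a high-fat diet (HFD, D12492, 60% of calories as fat) before and during pregnancy. All offspring were weaned onto standard chow, so HFD names the diet of the dam. There were 3 Ctr and 3 HFD mice at each time, from different litters by the study's account, in a cycle of 12 h light and 12 h dark with ZT0 at lights on. Each mouse gave 1 sample at 1 time, so the same animal was never followed over the day.

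The liver clock is a feedback loop of transcription. The activators ARNTL (BMAL1) and CLOCK or NPAS2 bind E-box motifs and switch on the Per and Cry genes, whose proteins repress them, and the Nr1d genes, whose REV-ERB proteins compete with ROR activators on RORE motifs of Arntl. The PAR bZIP factors DBP, TEF and HLF, which bind D-box motifs, and their competitor NFIL3 pass the rhythm to metabolic genes, on which the feeding and fasting cycle of a nocturnal animal acts as well.

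The libraries held 14758382 to 17235325 counts per mouse, and transcripts of the mitochondrial genome took 4.77% to 9.33% of them, the highest share being in HFD ZT9 replicate 1. The rank correlation across genes between GC content and a library's deviation from the mean of the 12 was -0.440 to -0.245 in the 3 HFD mice at ZT9 and 0.194 to 0.275 in the 3 HFD mice at ZT21, against 0.00392 to 0.0530 and 0.0636 to 0.138 in the Ctr mice at the same times. GC content therefore moved with time, mainly between the HFD groups. One library carried transcripts of another tissue: 12 skeletal muscle genes, a list added after these values had been seen, summed to 1376 CPM (counts divided by the library total, on one common scale) in HFD ZT21 replicate 2 and to 0.514 to 1.28 CPM in the other 11 mice. Hepatocyte markers such as albumin summed to 100272 to 131328 CPM in the 12 mice, while pancreatic acinar markers stayed at or below 5.56 CPM, lymphocyte markers at or below 20.9 CPM and neutrophil markers at or below 3.37 CPM. Adipocyte markers summed to 1308 to 3825 CPM. Of these 5 markers only 2, Cfd and Car3, had enough counts to be tested, and Adipoq, Retn and Plin1 did not. All 5 were above 0 only in Ctr ZT21 replicate 1 and HFD ZT21 replicate 2. Bulk tissue cannot tell fewer cells of a type from less RNA per cell.

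Among 17613 genes tested with edgeR's quasi-likelihood test, 2072 (11.8%) differed between ZT21 and ZT9 at a Benjamini-Hochberg adjusted p below 0.05. At ZT21 905 genes (5.14%) were higher and 1167 (6.63%) were lower. This balance turned with RLE scaling, to 1085 higher and 946 lower, with DESeq2, to 1371 and 1213, and with no filter, to 1220 and 1015. The rises were the larger ones: 227 of the 905 reached a log2 fold change of 1 and 75 reached 2, against 167 and 44 of the 1167 falls. Their median log2 fold changes were 0.64 and -0.54, beside -0.02 for all genes. The 6 mice of ZT21 did not overlap with the 6 of ZT9 in CPM for 1026 genes (5.83%), 400 higher (2.27%) and 626 lower (3.55%). Without the library with muscle transcripts 1749 genes were called, 892 higher and 857 lower, and 22 of the 75 genes with the largest rises were no longer called or no longer tested. The genes that rose had a median GC content of 52.96% and a median gene length, as deposited, of 3438 bases. Those that fell had 46.5% and 5346 bases, beside 49.4% and 3605 bases for all genes. With an offset for GC content fitted to each library, 686 of the 905 rises and 798 of the 1167 falls were called again, and 207 of the 227 and 152 of the 167 larger ones. The part of GC content in the other calls was not tested.

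**Figure D1:**
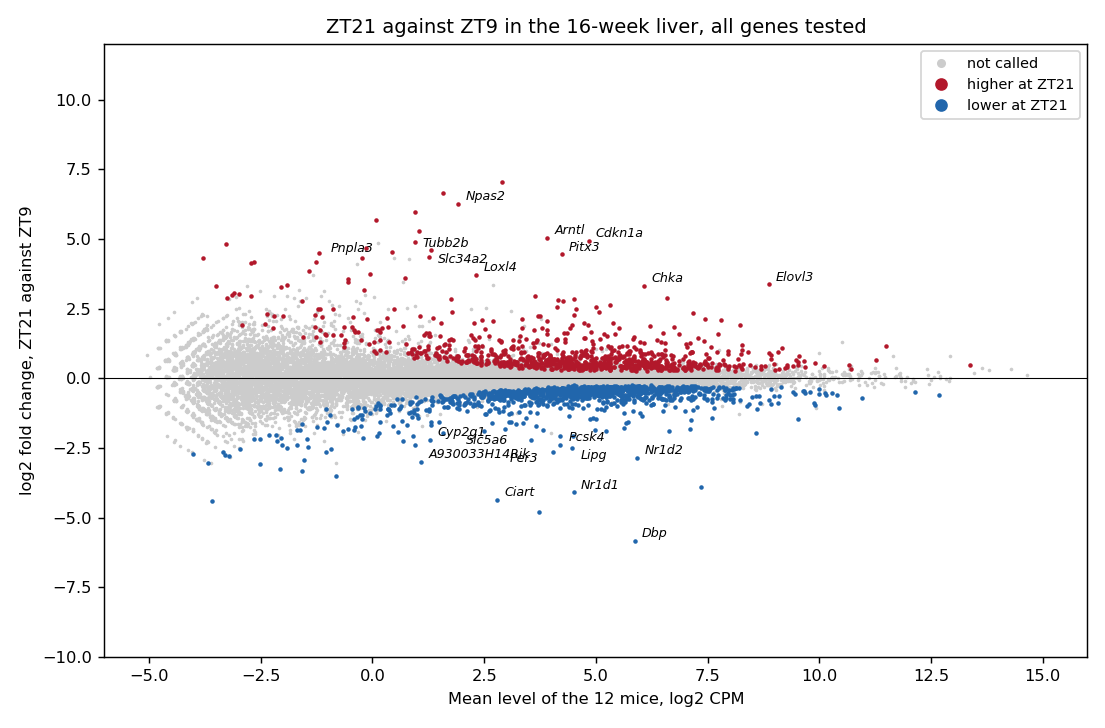
Log2 fold change of ZT21 against ZT9 (y) against the mean level of the 12 mice in log2 CPM (x) for the genes tested, 1 of which, not called, lies outside the axes. Red points are the 905 genes higher and blue points the 1167 genes lower at ZT21, and the labelled genes are the 10 largest rises and falls whose mice did not overlap within either diet.

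Among protein-coding genes at 1 CPM or more whose mice did not overlap within either diet, the 10 largest rises were led by a pair of clock activators. Npas2, the partner of ARNTL that can stand in for CLOCK (GRCm38, chr1:39193731-39363236), ranged from 0 to 0.187 CPM (median 0.06199) at ZT9 and from 2.44 to 11.7 CPM (median 7.202) at ZT21 (log2 fold change 6.27 ± 0.48, adjusted p = 3.28e-07). The ± of a log2 fold change or interaction is an approximate standard error, the size of the change divided by the square root of the test's F value. Arntl, the core activator (GRCm38, chr7:113207465-113314126), ranged from 0.655 to 1.102 CPM (median 0.908) at ZT9 and from 24.3 to 34.9 CPM (median 29.6) at ZT21 (log2 fold change 5.04 ± 0.16, adjusted p = 2.38e-11). The lowest ZT21 mouse was far above the highest ZT9 mouse for both genes. Cdkn1a, the cell cycle inhibitor p21, ranged from 1.102 to 3.58 CPM (median 1.58) at ZT9 and from 26.4 to 78.3 CPM (median 64.5) at ZT21 (log2 fold change 4.94 ± 0.33, adjusted p = 7.35e-08). Pitx3, a homeobox transcription factor, ranged from 1.16 to 2.25 CPM (median 1.62) at ZT9 and from 23.9 to 50.9 CPM (median 37.3) at ZT21 (log2 fold change 4.45 ± 0.23, adjusted p = 3.47e-09). Elovl3, an elongase of very long chain fatty acids, was by far the most abundant of these 10 genes, at 84.2 ± 12.8 CPM at ZT9 and 852 ± 89.6 CPM at ZT21 (mean ± SD, n = 6 each; log2 fold change 3.37 ± 0.14, adjusted p = 2.11e-10). Chka, the choline kinase that starts phosphatidylcholine synthesis, rose from 12.1 to 124 CPM in the median (log2 fold change 3.32 ± 0.19, adjusted p = 1.31e-08). The phosphate transporter Slc34a2, the lysyl oxidase Loxl4, the tubulin Tubb2b and the lipid droplet protein Pnpla3 made up the 10, with log2 fold changes of 4.34, 3.72, 4.89 and 4.54. Npas2, Tubb2b, Pnpla3 and Slc34a2 had at most 0.187, 0.233, 0.417 and 0.536 CPM at ZT9, so the size of their folds rests on few reads.

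Of the 10 largest falls by the same rule, which leaves out genes whose mice overlapped such as Hamp (-3.90), 5 were clock genes. Dbp, the PAR bZIP factor (chr7:45705088-45710203), ranged from 62.1 to 155 CPM (median 118) at ZT9 and from 0.889 to 3.39 CPM (median 1.86) at ZT21 (log2 fold change -5.83 ± 0.22, adjusted p = 9.51e-11). Its highest ZT21 mouse lay far below its lowest ZT9 mouse. Ciart, a repressor of the ARNTL complex (chr3:95878503-95882251), ranged from 10.7 to 18.4 CPM (median 12.7) at ZT9 and from 0.444 to 0.823 CPM (median 0.651) at ZT21 (log2 fold change -4.36 ± 0.20, adjusted p = 1.2e-09). Nr1d1, which encodes REV-ERB alpha, ranged from 27.8 to 66.9 CPM (median 39.96) at ZT9 and from 1.49 to 4.699 CPM (median 2.02) at ZT21 (log2 fold change -4.10 ± 0.25, adjusted p = 1.66e-08). Nr1d2 (REV-ERB beta) and Per3 followed at -2.86 and -2.63. The other 5 were the endothelial lipase Lipg (log2 fold change -2.49 ± 0.16, adjusted p = 2.62e-08), the proprotein convertase Pcsk4 (log2 fold change -2.39 ± 0.14, adjusted p = 1.66e-08), the vitamin transporter Slc5a6 (log2 fold change -2.22 ± 0.17, adjusted p = 4.68e-07), the cytochrome P450 Cyp2g1 (log2 fold change -2.21 ± 0.39, adjusted p = 0.00157) and the RIKEN gene A930033H14Rik (log2 fold change -3.001 ± 0.31, adjusted p = 9.75e-06). Dbp, Nr1d1, Per3, Slc5a6 and A930033H14Rik overlap Sphk2, Thra, Camta1, Atraid and Rhobtb1 on the genome, and the strand setting of the counting is not given in the sources used here, so their values may hold reads of the neighbour. The same holds below for Usp2, Srebf1, Tspan4, Abcg5, Abcg8, Pfkfb1, Sult1a1, Afmid, Syvn1, Dkc1, Rrp9 and Sqstm1.

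All 5 clock activators were higher at ZT21. Beside Arntl and Npas2, Clock ranged from 23.5 to 31.2 CPM (median 28.2) at ZT9 and from 49.1 to 66.4 CPM (median 52.7) at ZT21 (log2 fold change 0.98 ± 0.09, adjusted p = 2.88e-06). Clock did not overlap between the times, whereas the ROR activator Rora, at 36.9 to 75.001 and 72.7 to 120.5 CPM, did so slightly (log2 fold change 0.59 ± 0.15, adjusted p = 0.0163).

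The repressors were split. Of 15 tested, 3 rose and 8 fell, with a median of -0.38. Cry1, the strongest repressor of the loop and a gene of the late night, ranged from 6.15 to 11.9 CPM (median 10.2) at ZT9 and from 42.6 to 61.97 CPM (median 56.9) at ZT21 (log2 fold change 2.56 ± 0.15, adjusted p = 1.32e-08). Nfil3, which competes with DBP for D-boxes, ranged from 9.38 to 14.9 CPM (median 10.5) at ZT9 and from 51.5 to 60.9 CPM (median 56.7) at ZT21 (log2 fold change 2.39 ± 0.12, adjusted p = 2.07e-09). Both were higher in every ZT21 mouse than in any ZT9 mouse. Csnk1d, a kinase that marks PER proteins, rose less (log2 fold change 0.36 ± 0.09, adjusted p = 0.0124). Nr1d2 fell from 113 to 13.4 CPM in the median and Per3 from 29.9 to 4.48 CPM. Per2 ranged from 25.3 to 41.4 CPM (median 29.9) at ZT9 and from 11.9 to 21.2 CPM (median 15.996) at ZT21 (log2 fold change -0.97 ± 0.15, adjusted p = 0.00063). The highest ZT21 mouse of each of these 3 genes lay below the lowest ZT9 mouse. Bhlhe41, an E-box repressor, fell as well, with some overlap (log2 fold change -1.96 ± 0.40, adjusted p = 0.00488). Per1 overlapped between the times (log2 fold change -0.38 ± 0.21, adjusted p = 0.29), as did Bhlhe40 (log2 fold change 0.02 ± 0.18, adjusted p = 0.972). Csnk1e did not pass the test, at 0.13. The calls of Cry2 (log2 fold change -0.31 ± 0.09, adjusted p = 0.0363) and Fbxl21 (log2 fold change -0.73 ± 0.22, adjusted p = 0.0394) were fragile, being lost in 9 of the 12 fits without 1 mouse for Cry2 (adjusted p up to 0.0977, without the HFD ZT21 replicate 3) and 8 of the 12 fits without 1 mouse for Fbxl21 (adjusted p up to 0.0865, without the HFD ZT21 replicate 1).

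**Figure D2:**
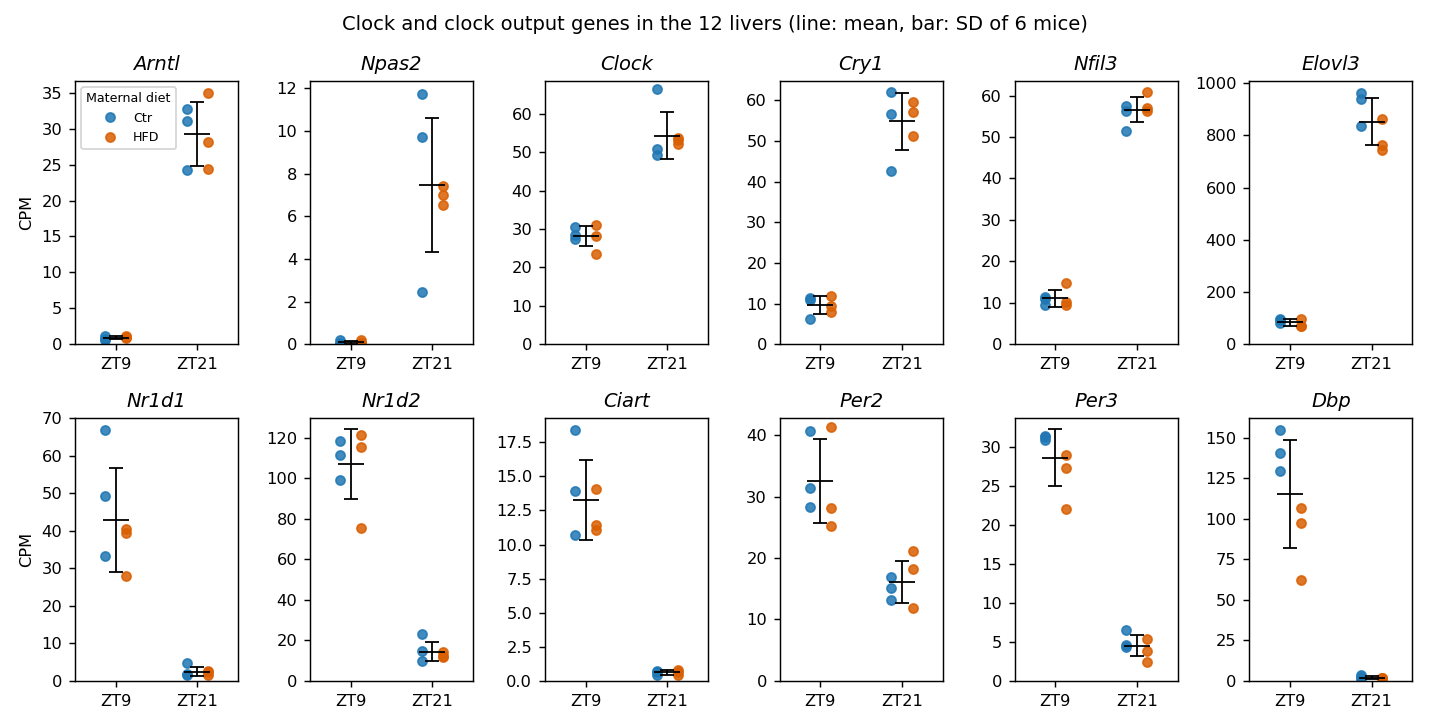
CPM (y, from 0) of 12 clock and clock output genes in each of the 12 livers at ZT9 and ZT21 (x), with blue points for Ctr and orange points for HFD mice and black lines for the mean and SD of the 6 mice. The times did not overlap for any of these 12 genes, of which the upper 6 were higher and the lower 6 lower at ZT21.

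Clock outputs moved in both directions. Of the 15 tested, 4 rose and 9 fell, with a median of -0.94. The PAR bZIP factors all fell, Tef from 219 to 59.003 CPM in the median (log2 fold change -1.84 ± 0.12, adjusted p = 2.92e-08) and Hlf from 58.99 to 36.2 CPM (log2 fold change -0.66 ± 0.11, adjusted p = 0.00091), beside the much larger fall of Dbp. The cell cycle kinase Wee1 (log2 fold change -1.85 ± 0.21, adjusted p = 2.83e-05) and the deubiquitinase Usp2 (log2 fold change -1.91 ± 0.13, adjusted p = 8.59e-08) fell by nearly the same amount, Usp2 sharing its position with a gene model on the genome. Gys2, the liver glycogen synthase, ranged from 249 to 316 CPM (median 283) at ZT9 and from 75.2 to 119 CPM (median 103) at ZT21 (log2 fold change -1.43 ± 0.12, adjusted p = 1.52e-06). No ZT21 mouse reached the ZT9 range for any of these 6 genes. Coq10b, of coenzyme Q metabolism, fell by 1.59 on the log2 scale and Mthfd1l, of mitochondrial folate metabolism, by 1.57. Por, the electron donor of the cytochromes P450, overlapped between the times but passed the test (log2 fold change -0.94 ± 0.15, adjusted p = 0.000761). Alas1, the first enzyme of haem synthesis, spread over 274 to 1036 CPM at ZT9 and 119 to 662 CPM at ZT21 and did not pass (-0.92, adjusted p = 0.195), nor did Tspan4 (-0.22, adjusted p = 0.149). Without the HFD ZT21 replicate 1 Alas1 passed (-1.44, adjusted p = 0.0199). Beside Elovl3, the genes that rose were Lonrf3 (log2 fold change 2.37 ± 0.33, adjusted p = 0.000233), the vasopressin receptor Avpr1a (log2 fold change 1.59 ± 0.13, adjusted p = 9.91e-07) and the transcription elongation factor Leo1 (log2 fold change 1.24 ± 0.12, adjusted p = 5.41e-06).

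The promoters of these genes were read from RefSeq on GRCm38.p6, from 250 bases before to 50 after a gene's start. Windows were found for 27 of the 35 clock genes, 37 windows in all, and 11 of the 27 held an E-box (CACGTG), a D-box (TTATGTAA, or TTAC followed by GTAA) or a RORE on either strand, none overlapping another. The stretches around them in 3 genes higher and 3 genes lower at ZT21 are given, with the motifs in capitals. Among these, an E-box stood before Cry1, which was higher, and before Ciart and Tef, which were lower.
Arntl, chr7:113207529-113207555, forward strand: gaaggcagAAAGTAGGTCAgggacgga
Leo1, chr9:75441442-75441482, forward strand: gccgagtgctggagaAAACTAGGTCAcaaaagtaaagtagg
Cry1, chr10:85185094-85185129, reverse strand: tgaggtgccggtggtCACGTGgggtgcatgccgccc
Ciart, chr3:95882252-95882359, reverse strand: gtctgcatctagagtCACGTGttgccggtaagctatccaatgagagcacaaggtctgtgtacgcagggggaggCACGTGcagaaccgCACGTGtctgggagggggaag
Per3, chr4:151044801-151044885, reverse strand: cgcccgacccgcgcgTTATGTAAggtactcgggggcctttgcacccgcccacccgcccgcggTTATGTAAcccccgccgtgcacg
Tef, chr15:81802531-81802566, forward strand: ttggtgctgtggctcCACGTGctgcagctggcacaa
The RORE of Arntl, the gene with the lowest p of all, began 26 bases past the start, and that of Leo1 lay 67 bases before it. Ciart held 3 E-boxes and Per3 a pair of D-boxes, while Cry1 and Tef, which moved in opposite directions, each had 1 E-box in the window shown. Over the 15155 windows of the 11884 tested genes with one, 9.23% held an E-box, 0.759% a D-box and 0.238% a RORE. In the 893 windows of genes higher at ZT21 the shares were 9.63%, 0.672% and 0.784% (7 windows for the RORE). In the 1153 windows of genes lower at ZT21 they were 13.1%, 1.39% and 0.0867% (1 window). A heat shock element stood in 0.468% of all windows, 0.672% of those of higher genes and 0.347% of those of lower genes. These shares are a description, and the windows do not cover introns or distant sites.

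All 19 pathway lists and 4 families are drawn as shares of their tested members. Beyond the clock, the share called in either direction ran from 13.3% of the iron genes to 55.6% of the bile acid genes among the pathway lists, beside 11.8% of all genes. Of the genes listed, Hsd3b7, Mt2 and Mrpl53 had too few counts to be tested and Hjv, which the table holds under its older symbol Hfe2, was not counted with its list. Without the library with muscle transcripts the count of a list shifted by at most 3 genes in either direction. Counts of 2 or fewer genes in a pathway list went to between 0 and 3 with any 1 mouse left out, apart from the autophagy list.

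**Figure D3:**
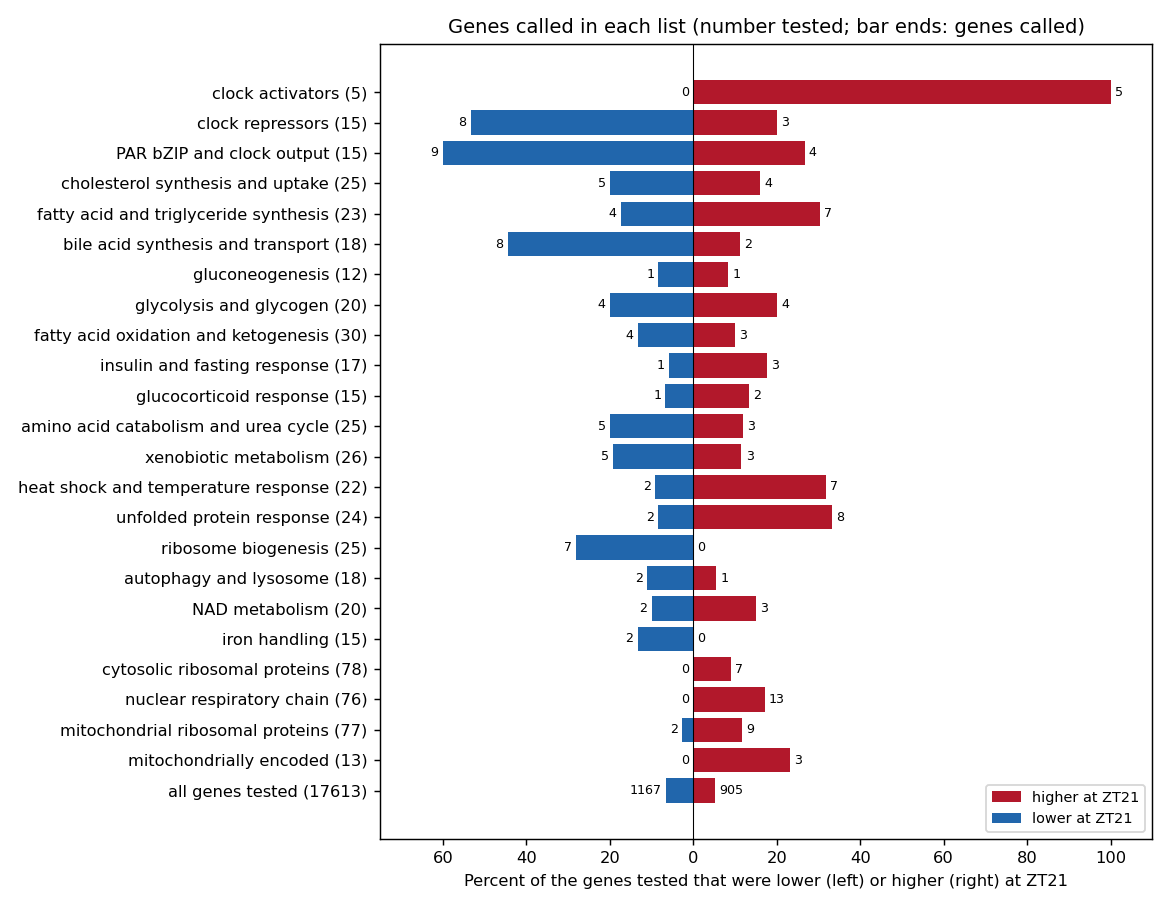
Share of the genes tested in each list (number in brackets) that were higher (red, right) or lower (blue, left) at ZT21, with the number of genes at the bar's end. All 5 clock activators were higher, as were 7 of 22 heat shock and 8 of 24 unfolded protein response genes, and 8 of 18 bile acid and 7 of 25 ribosome biogenesis genes were lower, beside 905 higher and 1167 lower of all 17613 genes.

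Cholesterol synthesis had no common direction. Of 25 genes of synthesis and uptake, 4 rose and 5 fell, with a median of -0.19. The counts moved with single mice, from 2 and 2 without the HFD ZT21 replicate 3 to 6 and 3 without the Ctr ZT21 replicate 1, and 6 of the 12 mice each left 2 rises when taken out. Pmvk, a kinase of the mevalonate pathway, ranged from 29.6 to 61.4 CPM (median 45.6) at ZT9 and from 95.6 to 135 CPM (median 123) at ZT21 (log2 fold change 1.37 ± 0.15, adjusted p = 1.75e-05), with no overlap between the times. Ebp, the sterol isomerase, rose (log2 fold change 0.49 ± 0.08, adjusted p = 0.000872), and so did Dhcr7, the last reductase of the pathway (log2 fold change 0.55 ± 0.15, adjusted p = 0.0288). Stard4, a carrier of sterols between membranes, ranged from 168 to 279 CPM (median 230.04) at ZT9 and from 101 to 154 CPM (median 131) at ZT21 (log2 fold change -0.79 ± 0.13, adjusted p = 0.000858). Msmo1 (log2 fold change -0.78 ± 0.19, adjusted p = 0.0142) and Idi1 (log2 fold change -0.76 ± 0.23, adjusted p = 0.04), both enzymes of the pathway, fell. The call was lost in 6 of the 12 fits without 1 mouse for Dhcr7 (adjusted p up to 0.0679, without the Ctr ZT21 replicate 3) and in 7 of the 12 fits without 1 mouse for Idi1 (adjusted p up to 0.108, without the HFD ZT21 replicate 3).

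Of 23 fatty acid and triglyceride genes, 7 rose and 4 fell, with a median of 0.16. With 1 mouse left out, 6 to 8 rose and 3 to 4 fell. Insig2, which holds the SREBP factors in the endoplasmic reticulum, ranged from 78.8 to 93.98 CPM (median 82.2) at ZT9 and from 312 to 459.8 CPM (median 347) at ZT21 (log2 fold change 2.11 ± 0.12, adjusted p = 8.14e-09). Acacb, whose product forms the malonyl-CoA that restrains fatty acid entry into mitochondria, ranged from 43.3 to 132 CPM (median 95.1) at ZT9 and from 135 to 355 CPM (median 204) at ZT21 (log2 fold change 1.44 ± 0.25, adjusted p = 0.00123). No mouse of one time reached the range of the other for either gene. Srebf1, the transcription factor SREBP1, fell from 343 to 199.5 CPM in the median (log2 fold change -0.73 ± 0.15, adjusted p = 0.00474), and overlaps Rai1 on the genome. The desaturase Fads2 (log2 fold change -0.92 ± 0.11, adjusted p = 6.09e-05) and the elongase Elovl6 (log2 fold change -0.77 ± 0.18, adjusted p = 0.0118) fell too. Scd1, the most abundant of the list at 2516 to 13357 CPM over the 12 mice, did not pass (0.79, adjusted p = 0.0565) but did so in 8 of 28 alternatives, among them DESeq2 (adjusted p = 0.0309) and the fit without the Ctr ZT21 replicate 1 (log2 fold change 0.97, adjusted p = 0.00912).

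Bile acid synthesis and transport leaned downward, 2 of 18 genes rising and 8 falling, with a median of -0.16. Cyp7a1, the rate-limiting enzyme of bile acid synthesis, ranged from 117 to 279.8 CPM (median 210.3) at ZT9 and from 40.4 to 198 CPM (median 92.5) at ZT21 (log2 fold change -1.03 ± 0.30, adjusted p = 0.0324), whereas Cyp8b1, which sets the share of cholic acid, ranged from 109 to 331 CPM (median 248) at ZT9 and from 259 to 598 CPM (median 480.2) at ZT21 (log2 fold change 0.93 ± 0.26, adjusted p = 0.0291). Both overlapped between the times, and both calls were fragile, being lost in 7 of the 12 fits without 1 mouse for Cyp7a1 (adjusted p up to 0.0761, without the HFD ZT9 replicate 2) and in 7 of the 12 fits without 1 mouse for Cyp8b1 (adjusted p up to 0.0792, without the HFD ZT21 replicate 3). Akr1d1, a reductase of bile acid synthesis, rose (log2 fold change 0.40 ± 0.09, adjusted p = 0.0107). Abcg5 (log2 fold change -1.27 ± 0.12, adjusted p = 5.69e-06) and Abcg8 (log2 fold change -0.94 ± 0.14, adjusted p = 0.000454), the paired subunits of the sterol exporter to bile, fell together, but the genes lie side by side and overlap. Slco1b2, an uptake transporter of hepatocytes, ranged from 884 to 1487 CPM (median 1232) at ZT9 and from 431 to 783 CPM (median 702) at ZT21 (log2 fold change -0.87 ± 0.17, adjusted p = 0.00371), without overlap.

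Of 12 gluconeogenic genes 1 rose and 1 fell (16.7% called, beside 11.8% of all genes). G6pc, the phosphatase that releases glucose, rose (log2 fold change 0.63 ± 0.17, adjusted p = 0.0237) and Slc37a4, which carries its substrate into the endoplasmic reticulum, fell (log2 fold change -0.60 ± 0.14, adjusted p = 0.0123), while the other 10, with Pck1 the most abundant (0.04, adjusted p = 0.905), did not pass. The G6pc call was lost in 3 of the 12 fits without 1 mouse for G6pc (adjusted p up to 0.0645, without the Ctr ZT21 replicate 2). Of 20 genes of glycolysis and glycogen, 4 rose and 4 fell. Of 3 glycogen-targeting subunits of protein phosphatase 1 in the list, 2 rose, Ppp1r3c from 29.8 to 51.8 CPM (median 33.8) at ZT9 and from 33.1 to 113 CPM (median 98.4) at ZT21 (log2 fold change 1.28 ± 0.23, adjusted p = 0.00179) and Ppp1r3b from 159.9 to 265 CPM (median 207) at ZT9 and from 335 to 487 CPM (median 375) at ZT21 (log2 fold change 0.88 ± 0.13, adjusted p = 0.000337), opposite to the glycogen synthase Gys2. The other, Ppp1r3g, did not pass (-0.67 ± 0.57, adjusted p = 0.508). Ppp1r3b did not overlap, and 1 ZT21 mouse of Ppp1r3c lay in its ZT9 range. Slc2a2, the glucose transporter GLUT2, ranged from 335 to 587 CPM (median 448) at ZT9 and from 138 to 281 CPM (median 216) at ZT21 (log2 fold change -1.01 ± 0.16, adjusted p = 0.000667). The enzymes that set fructose 2,6-bisphosphate moved apart, Pfkfb1 up (log2 fold change 0.78 ± 0.18, adjusted p = 0.0111) and Pfkfb3 down (log2 fold change -0.99 ± 0.23, adjusted p = 0.0107).

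Genes of fatty acid oxidation and of the fasting response held both signs. Of 30 oxidation genes, 3 rose and 4 fell. Pdk4, which shuts pyruvate out of oxidation, ranged from 3.05 to 6.62 CPM (median 4.3996) at ZT9 and from 11.8 to 57.6 CPM (median 30.1) at ZT21 (log2 fold change 2.82 ± 0.29, adjusted p = 1.24e-05). Cpt1a, the gate of fatty acids into mitochondria, moved the other way, from 440.5 to 716 CPM (median 526) at ZT9 and from 217 to 302 CPM (median 233) at ZT21 (log2 fold change -1.10 ± 0.11, adjusted p = 6.04e-06). Ppara, the nuclear receptor that drives this programme, ranged from 89.7 to 164 CPM (median 126) at ZT9 and from 44.2 to 66.9 CPM (median 55.7) at ZT21 (log2 fold change -1.17 ± 0.14, adjusted p = 7.41e-05). The times did not overlap for any of the 3. Bdh1, of ketone body formation, fell (log2 fold change -0.70 ± 0.10, adjusted p = 0.000328), while the lipid droplet protein Plin5 (log2 fold change 0.55 ± 0.11, adjusted p = 0.00533) and the thioesterase Acot1 (log2 fold change 0.69 ± 0.17, adjusted p = 0.0163) rose. Of 17 genes of insulin signalling and fasting, 3 rose and 1 fell. Igfbp1, an insulin-repressed secreted protein, ranged from 46.1 to 188 CPM (median 109.6) at ZT9 and from 144 to 443 CPM (median 341) at ZT21 (log2 fold change 1.60 ± 0.33, adjusted p = 0.00492), and Irs2, the insulin receptor substrate, rose (log2 fold change 0.99 ± 0.22, adjusted p = 0.00674). Trib3, a pseudokinase that binds AKT, fell (log2 fold change -1.27 ± 0.30, adjusted p = 0.0115). The stress gene Ddit4 was called (log2 fold change 1.32 ± 0.40, adjusted p = 0.0431), but not in 9 of the 12 fits without 1 mouse for Ddit4 (adjusted p up to 0.13, without the Ctr ZT21 replicate 3).

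Of 15 genes of the glucocorticoid response 2 were higher and 1 was lower, which is 20.0% called, beside 11.8% of all genes. Beside Cdkn1a, the zinc finger factor Zbtb16 ranged from 1.69 to 9.25 CPM (median 4.77) at ZT9 and from 15.5 to 36.96 CPM (median 17.5) at ZT21 (log2 fold change 2.22 ± 0.32, adjusted p = 0.000288). Serpina6, the corticosteroid-binding globulin that carries the hormone in plasma, ranged from 179 to 402 CPM (median 269.6) at ZT9 and from 103 to 160.1 CPM (median 121) at ZT21 (log2 fold change -1.05 ± 0.17, adjusted p = 0.000732). Neither overlapped between the times, whereas Tat, the most abundant of the list, did (-0.16, adjusted p = 0.688).

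Of 25 amino acid genes, 3 rose and 5 fell. Gldc, of the glycine cleavage system, ranged from 71.1 to 111 CPM (median 78.3) at ZT9 and from 149 to 275 CPM (median 177) at ZT21 (log2 fold change 1.27 ± 0.15, adjusted p = 3.5e-05), and the urea cycle enzyme Ass1 rose (log2 fold change 0.66 ± 0.16, adjusted p = 0.0137). The amino acid transporters Slc38a2 (log2 fold change -0.76 ± 0.19, adjusted p = 0.015) and Slc38a4 (log2 fold change -0.61 ± 0.11, adjusted p = 0.0021) and the tryptophan dioxygenase Tdo2 (log2 fold change -0.59 ± 0.12, adjusted p = 0.0054) fell. Of 26 xenobiotic genes, 3 rose and 5 fell, and none rose without the Ctr ZT9 replicate 2. Cyp2a5, the coumarin hydroxylase, ranged from 901 to 1490.3 CPM (median 1021) at ZT9 and from 224 to 485 CPM (median 410.4) at ZT21 (log2 fold change -1.47 ± 0.18, adjusted p = 7.41e-05), the drug exporter Abcc2 fell (log2 fold change -0.80 ± 0.12, adjusted p = 0.00037), and Cyp2e1, the most abundant of the list, fell by 0.59 on the log2 scale. The 3 rises of the list were small, Gsta3 at 0.48, Gclc at 0.48 and Sult1a1 at 0.43, and were lost in 9, 1 and 5 of the 12 fits without 1 mouse, with adjusted p of up to 0.0954 (Gsta3, without the Ctr ZT21 replicate 3).

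In NAD metabolism 3 of 20 genes rose and 2 fell, with 5 rises without the HFD ZT9 replicate 2 and 1 fall without the HFD ZT21 replicate 1 or 3. Nampt, the rate-limiting enzyme of NAD salvage, ranged from 92.01 to 119.6 CPM (median 100.1) at ZT9 and from 43.5 to 61.2 CPM (median 52.1) at ZT21 (log2 fold change -0.91 ± 0.09, adjusted p = 6.15e-06), with no overlap. Acmsd, which diverts the tryptophan path away from NAD, rose (log2 fold change 1.13 ± 0.25, adjusted p = 0.00837), with Afmid of the same path (log2 fold change 0.58 ± 0.12, adjusted p = 0.00488). Of 15 iron genes none rose and 2 fell. Hamp, the hormone hepcidin, spread over 1.56 to 650.2 CPM at ZT9 and 1.76 to 74.05 CPM at ZT21, a very wide spread within each time, and passed the test (log2 fold change -3.90 ± 0.93, adjusted p = 0.0119). The metal transporter Slc39a14 fell in every mouse of ZT21 below the lowest of ZT9 (log2 fold change -0.54 ± 0.10, adjusted p = 0.00202).

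Chaperone genes leaned upward. Of 22 heat shock and temperature genes, 7 rose and 2 fell, with a median of 0.19. Hspb1, a small heat shock protein, ranged from 8.99 to 25.4 CPM (median 22.9) at ZT9 and from 44.96 to 112 CPM (median 67.9) at ZT21 (log2 fold change 1.81 ± 0.24, adjusted p = 0.000165). The co-chaperone Fkbp4 ranged from 119 to 172 CPM (median 151) at ZT9 and from 228 to 303 CPM (median 276) at ZT21 (log2 fold change 0.93 ± 0.12, adjusted p = 9.63e-05), and Hspa4l rose similarly (log2 fold change 0.94 ± 0.13, adjusted p = 0.000163). All 3 separated the times. Rbm3, an RNA-binding protein raised by cold, moved the other way, from 23.4 to 37.5 CPM (median 29.7) at ZT9 and from 11.7 to 17.9 CPM (median 16.5) at ZT21 (log2 fold change -0.94 ± 0.15, adjusted p = 0.00065). The fall of Hspa4 (log2 fold change -0.33 ± 0.09, adjusted p = 0.0328) was lost in 10 of the 12 fits without 1 mouse for Hspa4 (adjusted p up to 0.103, without the HFD ZT21 replicate 2). Hspa8, the most abundant of the list, was not called (-0.11, adjusted p = 0.701). Of 24 genes of the unfolded protein response, 8 rose and 2 fell, with a median of 0.25. Sdf2l1, a factor of the endoplasmic reticulum chaperone complex, ranged from 26.3 to 31.8 CPM (median 29.4) at ZT9 and from 34.9 to 87.1 CPM (median 59.1) at ZT21 (log2 fold change 1.12 ± 0.19, adjusted p = 0.0012). The stress-induced protein Creld2 (log2 fold change 1.01 ± 0.21, adjusted p = 0.00552) and the ubiquitin ligase Syvn1 (log2 fold change 0.89 ± 0.14, adjusted p = 0.000762) rose, whereas the chaperone cofactor Dnajb9 fell (log2 fold change -0.90 ± 0.17, adjusted p = 0.00265). Hspa5 (BiP), the most abundant, overlapped between the times (0.33, adjusted p = 0.285).

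Ribosome biogenesis moved in 1 direction among the genes that passed: of 25, none rose and 7 fell, with a median of -0.28, or 4 to 8 with 1 mouse left out. Dkc1, the pseudouridine synthase, ranged from 11.4 to 20.3 CPM (median 17.2) at ZT9 and from 7.41 to 11.4 CPM (median 9.14) at ZT21 (log2 fold change -0.81 ± 0.14, adjusted p = 0.00155). The nucleolar proteins Nop58 (log2 fold change -0.75 ± 0.17, adjusted p = 0.00783) and Rrp9 (log2 fold change -0.62 ± 0.14, adjusted p = 0.00869) fell as well. Ncl (nucleolin), the most abundant, fell (log2 fold change -0.33 ± 0.09, adjusted p = 0.0316) but was lost in 7 of the 12 fits without 1 mouse for Ncl (adjusted p up to 0.0971, without the HFD ZT21 replicate 2). With the HFD mice alone none of the 25 was called, beside 314 of all 18374 genes tested there. With the Ctr mice alone 3 were called, beside 705 of 18496 genes. None of the 25 passed a test of whether its ZT21 to ZT9 difference depended on diet. Of 18 autophagy and lysosome genes 1 rose and 2 fell (16.7% called, beside 11.8% of all genes). The receptor Sqstm1 rose (log2 fold change 0.43 ± 0.10, adjusted p = 0.00808). The mitophagy receptor Bnip3 (log2 fold change -0.71 ± 0.15, adjusted p = 0.0059) and the autophagosome protein Wipi1 (log2 fold change -0.46 ± 0.11, adjusted p = 0.012) fell. Without the Ctr ZT21 replicate 1 there were 4 falls, and without the HFD ZT9 replicate 2 there were 2 rises.

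Of 78 cytosolic ribosomal protein genes 7 rose and none fell, with a median of 0.20, and of 76 nuclear genes of the respiratory chain 13 rose and none fell, with a median of 0.23. The shares called, 8.97% and 17.1%, stand beside 11.8% of all genes. Rps2, the most abundant ribosomal gene, ranged from 457 to 607 CPM (median 552) at ZT9 and from 642 to 738 CPM (median 712) at ZT21 (log2 fold change 0.42 ± 0.10, adjusted p = 0.0123), and Atp5e, a small subunit of the ATP synthase, ranged from 107 to 159 CPM (median 151) at ZT9 and from 163 to 244 CPM (median 206) at ZT21 (log2 fold change 0.52 ± 0.13, adjusted p = 0.0137). The larger subunit gene Atp5b was not called (-0.06, adjusted p = 0.802). Mitochondrial ribosomal proteins gave 9 rises and 2 falls of 77, led by Mrpl34 (log2 fold change 0.70 ± 0.10, adjusted p = 0.000257), which is 14.3% called. The falls, Mrps9 and Mrpl47, were lost in 8 of the 12 fits without 1 mouse for Mrps9 (adjusted p up to 0.121, without the HFD ZT21 replicate 3) and in 3 of the 12 fits without 1 mouse for Mrpl47 (adjusted p up to 0.0698, without the HFD ZT21 replicate 3). The 13 mitochondrially encoded genes gave 3 rises, which is 23.1% called. Of these, mt-Co3 and mt-Atp6 overlap each other and were lost in 7 of the 12 fits without 1 mouse for mt-Co3 (adjusted p up to 0.101, without the HFD ZT21 replicate 3) and in 4 of the 12 fits without 1 mouse for mt-Atp6 (adjusted p up to 0.0627, without the HFD ZT9 replicate 3). These calls moved with the settings: 11 ribosomal and 17 respiratory chain genes rose with another scaling (RLE) and 6 and 9 with GC offsets. In the Ctr mice alone 1 and 2 rose, beside 389 of all 18496 genes. In the HFD mice alone 0 and 1 rose, beside 209 of all 18374 genes. Single mice moved the list counts as much, to 18 ribosomal, 30 respiratory chain and 14 mitochondrial ribosomal rises without the HFD ZT9 replicate 2, and to 4, 6 and 4 without the HFD ZT21 replicate 3. Ribosomal protein genes have many near-identical pseudogenes that can share their reads, so their values are uncertain, and the part of GC content in their changes was not tested.

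Markers of other cell types were called in small numbers from short lists. None of 9 endothelial and 9 lymphocyte markers was called, nor any of the 4 pancreatic, 3 neutrophil and 2 adipocyte markers that could be tested, 1 of 10 Kupffer cell markers was lower, 1 of 9 stellate cell or fibroblast markers, 2 of 6 cholangiocyte markers and 2 of 5 red blood cell genes were higher, and of 8 hepatocyte markers 1 was higher and 1 lower, beside 5.14% of all genes higher and 6.63% lower. The median log2 fold change was 1.32 for the adipocyte, 1.22 for the cholangiocyte, 0.39 for the stellate cell or fibroblast, 0.30 for the red blood cell and 0.07 for the hepatocyte genes, and -0.08 for the endothelial, -0.10 for the Kupffer cell, -0.36 for the lymphocyte, -0.36 for the neutrophil and -1.28 for the pancreatic genes, beside -0.02 for all genes. Of the muscle genes 5 were tested and 3 were called higher. The summed stellate cell or fibroblast markers ran from 226 to 399 CPM at ZT9 and from 307 to 564 CPM at ZT21, the highest being the library with muscle transcripts. Cholangiocyte markers summed to 24.1 to 57.0 CPM at ZT9 and 29.5 to 59.8 CPM at ZT21, and red blood cell genes to 262 to 407 and 263 to 549.8 CPM. Their part in the results was not tested.

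The study asked whether maternal diet changes the rhythm of the liver, and with these times the question is whether the ZT21 to ZT9 difference depended on diet. No gene of 17613 (0%) passed the interaction of diet and time in edgeR's quasi-likelihood test, with 1068 at an unadjusted p below 0.05, and DESeq2 gave 0 calls with 951 at that p. With GC offsets 581 genes and with a replicate block 656 were at that p, and none was called. The difference of Arntl was 5.24 in Ctr and 4.91 in HFD mice (interaction -0.33 ± 0.33), that of Dbp -5.93 and -5.65 (0.28 ± 0.42), and that of Per2 -1.02 and -0.84 (0.17 ± 0.31). The 5 genes with the lowest p were Foxp4 (0.82 ± 0.18, adjusted p = 0.815), Irf2bp1 (0.87 ± 0.19), Sf3a2 (1.25 ± 0.28), Slc22a28 (-0.93 ± 0.21) and Gm10709 (1.18 ± 0.28), where a positive value means that the ZT21 minus ZT9 difference was higher in HFD than in Ctr mice. For Foxp4 that difference was -0.33 in Ctr and 0.50 in HFD mice. A miss of the threshold with 3 mice in a group does not show that the diets acted alike.

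To place the pair of times within the day, the mean levels of the 6 times at 16 weeks were compared as a description. Of the genes higher at ZT21, 39.9% had their highest mean at ZT21, 30.8% at ZT1 and 21.1% at ZT17. Of the genes lower at ZT21, 72.7% had it at ZT9, 13.02% at ZT13 and 10.7% at ZT5. Genes not called had it at ZT9 in 21.6% and at ZT21 in 12.6%. The called genes were chosen on 2 of these times, which favours those times as the highest, so nothing is read from these shares. Nr1d1 was highest at ZT5, at 77.7 ± 14.3 CPM (SD, n = 6), against 42.9 ± 13.8 at ZT9. Per2 was highest at ZT17, at 60.2 ± 4.03 CPM, so that both of the times compared lie on its flanks. Dbp was highest at ZT9, and Arntl stood at 29.3 ± 4.401 CPM at ZT21 and 27.6 ± 2.15 CPM at ZT1.

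**Figure D4:**
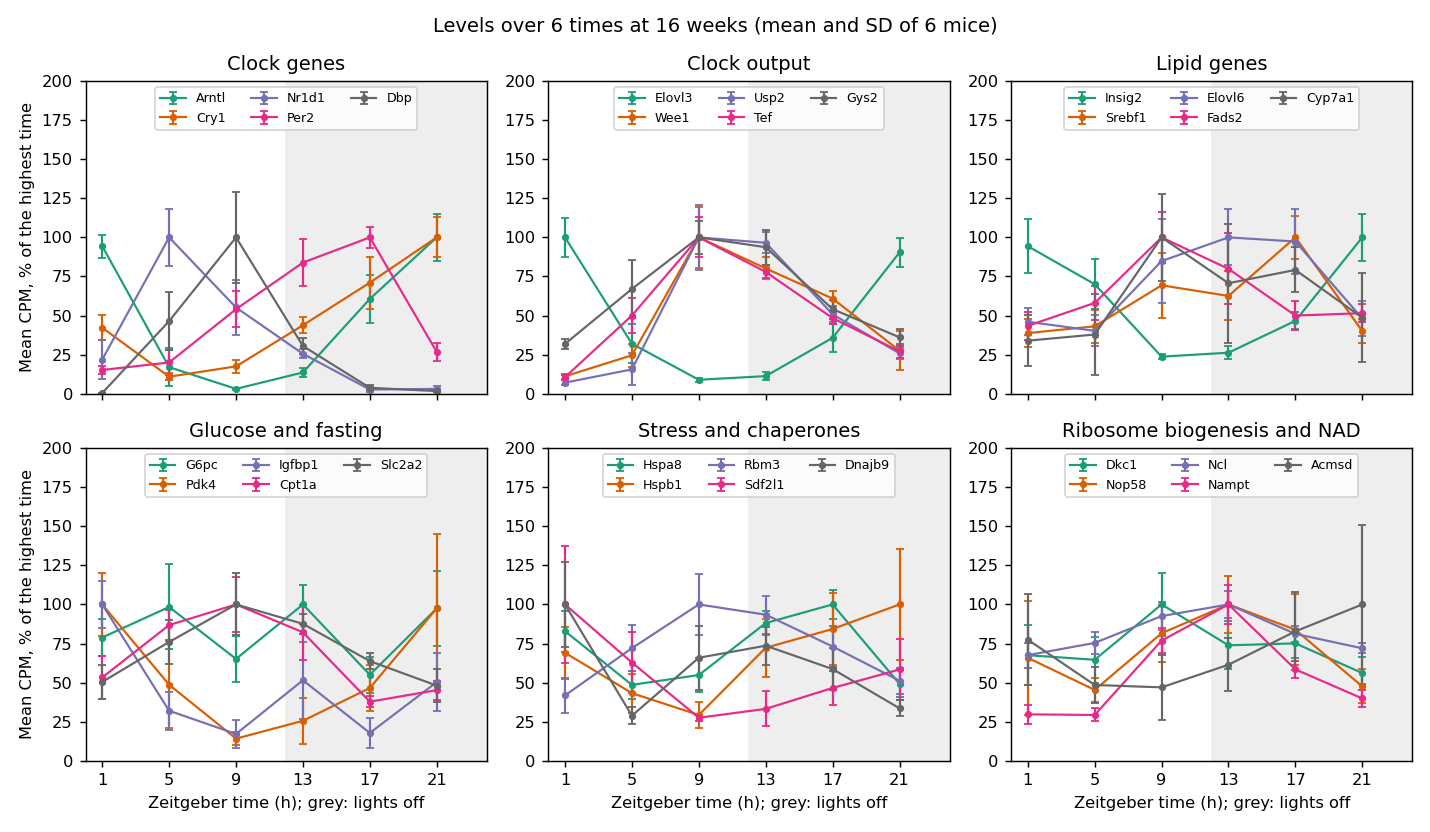
Mean CPM with SD of 6 mice as a percent of the gene's highest time (y) at 6 zeitgeber times in hours (x), grey marking the dark phase, for 30 genes in 6 groups. Arntl, Cry1 and Elovl3 were high at ZT21 and low at ZT9, Dbp, Tef and Usp2 the reverse, and Per2 was highest at ZT17 between them.

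Another dark and light pair, ZT17 against ZT5, shares no mice with ZT21 and ZT9 and gave 3518 calls of 17545 genes (20.1%), 1689 higher (9.63%) and 1829 lower (10.4%). Of the genes higher at ZT21 32.6% were called in the same direction there and 9.01% in the opposite direction, and of the genes lower at ZT21 30.2% and 11.6%. The difference between the pairs was tested as an interaction, (ZT21 minus ZT9) minus (ZT17 minus ZT5), and 2073 of 17476 genes (11.9%) passed, 954 positive (5.46%) and 1119 negative (6.4%). This balance turned with RLE scaling, to 1047 positive and 996 negative, and with DESeq2, to 1223 and 1163. Insig2 had the lowest p, with 2.11 against -0.50 (interaction 2.63 ± 0.18, adjusted p = 2.81e-10). Nampt fell by 0.91 in the late pair and rose in the early pair (1.08, interaction -1.98 ± 0.13, adjusted p = 2.81e-10). Marveld1 (-1.82 ± 0.13), Enpp3 (1.92 ± 0.14) and St5 (2.90 ± 0.23) completed the 5 lowest. Per2 was lower at ZT21 than at ZT9 but higher at ZT17 than at ZT5 (2.41, interaction -3.36 ± 0.28, adjusted p = 1.1e-08), and Wee1 (-3.21 ± 0.28, adjusted p = 1.93e-08) and Usp2 (-3.66 ± 0.40, adjusted p = 5.04e-07) did the same. Cry1 rose in both pairs (2.78 in the early one), and its interaction was -0.22 ± 0.22, adjusted p = 0.619.

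Whole lists had different counts in the 2 pairs. Of 25 cholesterol genes, 15 rose and none fell from ZT5 to ZT17, and 15 had a negative interaction, among them Msmo1 (-1.39 ± 0.30, adjusted p = 0.00203). Of 25 ribosome biogenesis genes, 18 rose and 1 fell in the early pair, and 19 had a negative interaction, such as Nop58 (-1.71 ± 0.26, adjusted p = 4.5e-05). Of 22 heat shock genes, 18 rose and 1 fell in the early pair, with 10 negative interactions and 1 positive; for Hspa8 the interaction was -1.23 ± 0.21, adjusted p = 0.000183. In the fatty acid list Srebf1 (-2.05 ± 0.21, adjusted p = 1.54e-07) and Elovl6 (-2.10 ± 0.27, adjusted p = 4.61e-06) were among 8 of 23 negative ones, beside 2 positive. Of 12 gluconeogenic genes G6pc (1.38 ± 0.24, adjusted p = 0.00019) and Pck1 (0.98 ± 0.28, adjusted p = 0.0182) had positive ones, both having fallen from ZT5 to ZT17, and Slc37a4, which had risen, a negative one (-1.30 ± 0.20, adjusted p = 4.28e-05).

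**Figure D5:**
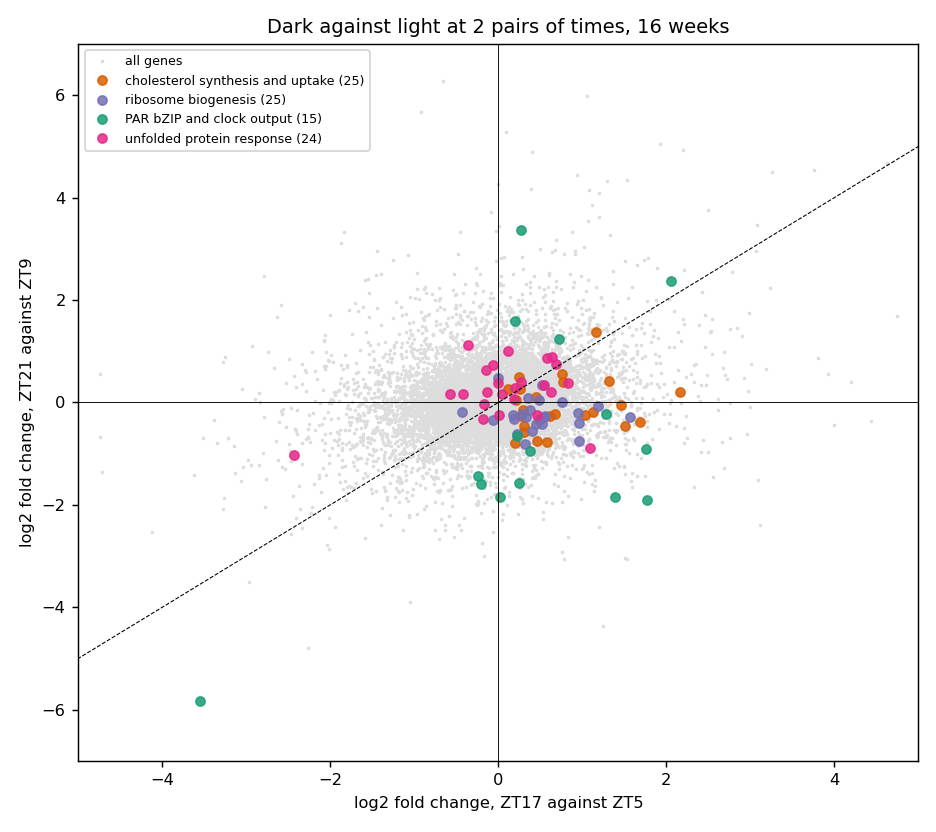
Log2 fold change of ZT21 against ZT9 (y) against that of ZT17 against ZT5 (x), with grey points for all genes, coloured points for 4 lists and a dashed line for equal values. The 25 cholesterol and 25 ribosome biogenesis genes lie mostly right of 0 and below the dashed line, with 15 and 19 negative interactions.

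The same contrast at 4 weeks used 11 other mice, 2 Ctr and 3 HFD at ZT9 and 3 of each diet at ZT21, and gave 2177 calls of 16629 genes (13.1%), 1157 higher (6.96%) and 1020 lower (6.13%). Of the genes higher at ZT21 at 16 weeks 47.5% were called in the same direction at 4 weeks and 0.559% in the opposite direction, and of the lower genes 33.1% and 1.03%. Arntl rose by 5.19 ± 0.17 and Dbp changed by -6.32 ± 0.19 at 4 weeks, and the interaction with age was -0.15 ± 0.24, adjusted p = 0.798 and 0.49 ± 0.30, adjusted p = 0.394. In all 397 of 16273 genes (2.44%) passed the interaction of age and time, 142 positive (0.873%) and 255 negative (1.57%). This balance turned with DESeq2, to 452 positive and 385 negative, and was nearly even with RLE scaling, at 186 and 189. Sun2, of the nuclear envelope, led the 397 genes (1.36 ± 0.18, adjusted p = 0.00204), followed by Srsf3 (-1.04 ± 0.15), Xpo1 (-0.84 ± 0.13), Foxa3 (1.11 ± 0.17) and Spint2 (0.83 ± 0.13). Per2 had 0.39 ± 0.20, adjusted p = 0.236 at 4 weeks, and its interaction was -1.36 ± 0.26, adjusted p = 0.012. Of the 25 cholesterol genes 16 rose and none fell at 4 weeks, and 10 had a negative interaction, with Idi1 at -1.57 ± 0.32, adjusted p = 0.0162. This count was fragile: without replicate 2 of every group no gene passed, and with GC offsets 153 did. One 4-week mouse carries conflicting age labels, and without it 260 genes passed.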

How the data were processed

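Raw counts per gene were used as the authors deposited them, in a table of 54532 genes for each age. By the study's account and the submitters' processing notes, poly(A) RNA was sequenced, reads were aligned with HISAT2 2.0.5 to GRCm38, and uniquely mapped reads were counted with featureCounts 1.5.0-p3. Another 2 columns of the 4-week table match no listed sample and were not used. Samples were grouped by title.

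The test used genes counted in 50% or more of the Ctr mice and 50% or more of the HFD mice, with edgeR 4.0.16 (R 4.3.3; TMM scaling, quasi-likelihood test, diet and ZT as terms, Benjamini-Hochberg adjustment over all genes tested). CPM are counts divided by the library total, on a common scale. Interactions of time with diet, with age and with the pair of times were fitted the same way. DESeq2 1.42.0, RLE scaling, other filters, GC offsets (GENCODE M21 transcripts), blocks and left-out mice were alternatives. The code was tested on simulated data. Replicates were compared, and none was a duplicate.

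Named genes were the 10 largest rises and falls among protein-coding genes with an adjusted p below 0.05, a mean of at least 1 CPM and no overlap within either diet, all clock list members, the 3 largest called rises and falls and the most abundant member of each other list, and the 5 lowest p of each interaction. A few genes that the rule names are not reported here, though list counts include them. The comparison, lists and rule were chosen with earlier results of these data known. Promoters came from RefSeq.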

Additional observations from a re-analysis of the deposited data

Results flagged for a closer look

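In each group of 6 mice of 1 time, a gene was marked where the gap between its highest or lowest mouse and the next was over Dixon's 95% limit for 6 values, as a share of the whole range, which chance passes in about 1 group in 20. This was so in 29 of 328 groups of the 164 named genes. At ZT9 the highest mouse stood apart for Cdkn1a (Ctr replicate 3, 3.58 CPM), Pnpla3 (Ctr replicate 2, 0.417 CPM), Nfil3 (HFD replicate 1, 14.9 CPM), Pfkfb1 (HFD replicate 2, 53.2 CPM), Acot1 (Ctr replicate 1, 61.8 CPM) and Gldc (Ctr replicate 3, 111 CPM). This was also so at ZT9 for Ass1 (Ctr replicate 3, 2768 CPM), Bnip3 (HFD replicate 1, 216 CPM), Mrps9 (HFD replicate 1, 25.2 CPM) and mt-Co3 (HFD replicate 2, 243 CPM). At ZT9 the lowest mouse stood apart for Slc37a4 (HFD replicate 1, 144 CPM), Abcb1a (HFD replicate 2, 1.997 CPM), Hspb1 (HFD replicate 1, 8.99 CPM) and Atp5e (HFD replicate 3, 107 CPM). At ZT21 the highest mouse stood apart for Nr1d2 (Ctr replicate 1, 23.04 CPM), Clock (Ctr replicate 2, 66.4 CPM), Bhlhe41 (HFD replicate 1, 2.54 CPM), Lonrf3 (Ctr replicate 2, 9.46 CPM), Por (Ctr replicate 1, 350.4 CPM) and Insig2 (Ctr replicate 2, 459.8 CPM). This was also so at ZT21 for Tdo2 (HFD replicate 2, 1451 CPM), Hspa4 (Ctr replicate 2, 138 CPM), Acmsd (HFD replicate 2, 109.98 CPM), Rpl36 (HFD replicate 3, 279.6 CPM), mt-Co3 (HFD replicate 3, 706 CPM) and mt-Atp6 (HFD replicate 3, 375 CPM). At ZT21 the lowest mouse stood apart for Ppp1r3c (Ctr replicate 1, 33.1 CPM), Srsf3 (HFD replicate 3, 26.1 CPM) and Marveld1 (HFD replicate 3, 31.1 CPM). By the same measure, the skeletal muscle markers of HFD ZT21 replicate 2 (1376 CPM) stood apart, and so did its stellate cell or fibroblast markers (564 CPM). The hepatocyte markers of Ctr ZT21 replicate 1 (100272 CPM), the pancreatic acinar markers of Ctr ZT21 replicate 3 (4.87 CPM) and the mitochondrial share of HFD ZT9 replicate 1 (9.33%) did so too.

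The ZT21 to ZT9 difference differed between the ages for 23 named genes in edgeR's interaction test, given here as the log2 difference at 16 weeks minus that at 4 weeks. It was more negative at 16 weeks for Idi1 (-1.57), Per2 (-1.36), Elovl6 (-1.35), Srebf1 (-1.17), Dnajb9 (-1.09), Srsf3 (-1.04) and Msmo1 (-0.97), and also for Nop58 (-0.89), Dkc1 (-0.87), Xpo1 (-0.84), Stard4 (-0.84), Hspa4l (-0.68), Clock (-0.61), Marveld1 (-0.58) and Hspa4 (-0.53). It was more positive at 16 weeks for Sun2 (1.36), Foxa3 (1.11), Nr1d2 (0.98), St5 (0.89), Enpp3 (0.87), Spint2 (0.83), Rpl28 (0.73) and Abcg8 (0.73). The total of such genes fell to 0 without replicate 2 of every group, and GC offsets left 153, so these values are to be read with that limit.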

How the results depend on the processing

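The 2072 calls became 2584 with DESeq2, 2031 with RLE scaling and 1771 with GC offsets, of which 1484 were shared with the main calls. RLE scaling moved the share of rises from 43.7% to 53.4%. The count was 705 in the Ctr mice alone, 314 in the HFD mice alone, 242 against a log2 fold change of 0.5, and 3343 in a fit of all 36 sequenced mice of 16 weeks. Leaving out mice gave 619 to 2192 calls, the lowest without replicate 3 of every group and 826 without replicate 1; a single left-out mouse gave no fewer than 1420. The diet interaction had 12 calls with no filter and 0 to 1 with mice left out. The age interaction had 837 calls with DESeq2, 153 with GC offsets and 0 to 260 with mice left out. The interaction of the pairs of times had 974 to 1248 calls with replicates left out. Of the 164 named genes, 14 that were not called changed sign in an alternative and none that was called did, and no value with a changed sign was called. In all 652 values lost their call and 36 gained one, while 3904 did neither.

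Mice with the same number did not deviate together (correlations of -0.35 to 0.08), so the numbers were not taken to pair them. With a replicate block 1437 genes were called, 1290 with block and GC offsets, 137 for the age interaction, 1989 for the pairs of times and 0 for diet; 2 of 12 mice correlated best with their own number.

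With 3 mice per diet and time, small changes of low genes were not detectable, and the intervals cover only the spread between these mice.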
